A study of Mus musculus with 18 samples.

Results

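The 10 genes followed here encode main structural proteins of the lens capsule, and they were measured in 18 libraries of mouse lens RNA. They were taken by symbol from the table of 40800 genes: the 6 type IV collagen genes *Col4a1*, *Col4a2*, *Col4a3*, *Col4a4*, *Col4a5* and *Col4a6*, the laminin genes *Lama1* and *Lamc1*, the perlecan gene *Hspg2*, and *Sparc*. All 10 were found, and all 10 passed the filter on low counts that left 13938 genes. The mice were C57BL/6J, and each library was made from RNA of several pooled whole lenses. The *Cryaa*-R49C line, a knock-in of an arginine-to-cysteine change in αA-crystallin, was sampled at 2 days of age: WT lenses, lenses with 1 mutant copy (*Cryaa*-R49C-het) and lenses with 2 (*Cryaa*-R49C-homo). The *Cryab*-R120G line, a knock-in of an arginine-to-glycine change in αB-crystallin, was sampled at 14 days of age in the same 3 genotypes (WT, 1 copy in *Cryab*-R120G-het, 2 copies in *Cryab*-R120G-homo). Each of the 6 groups had 3 libraries. Line, age and the set of libraries therefore change together and cannot be told apart. The genotype field of the 6 *Cryab* mutant libraries names the other line, so their groups were taken from their titles.

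The capsule is the thick basement membrane that wraps the lens, and lens epithelial and fibre cells lay it down throughout life. Type IV collagen chains assemble into trimers that join into a network. The *Col4a1* and *Col4a2* chains make the network common to basement membranes, the *Col4a3*, *Col4a4* and *Col4a5* chains share a trimer that replaces or joins it as some basement membranes mature, and the *Col4a5* and *Col4a6* chains share another. Laminins polymerise at the cell surface and start the sheet, perlecan is a heparan sulfate proteoglycan that bridges the networks, and the *Sparc* product is a collagen-binding protein whose loss causes cataract in mice. Mutations in *COL4A3*, *COL4A4* and *COL4A5* cause Alport syndrome, in which the lens capsule thins and bulges.

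The 6 type IV collagen genes lie as 3 head-to-head pairs in the GRCm38 genome (GENCODE vM21), each pair reading outward from a common start region. *Col4a1* (chr8:11198423-11312826, minus strand) and *Col4a2* (chr8:11312805-11449287, plus strand) start 21 bp apart and overlap by 22 bp. *Col4a3* (chr1:82586921-82722059, plus strand) and *Col4a4* (chr1:82448423-82586849, minus strand) start 72 bp apart. *Col4a5* (chrX:141475385-141689234, plus strand) and *Col4a6* (chrX:141165403-141474076, minus strand) start 1309 bp apart. The other members stand alone: *Lama1* at chr17:67697259-67822647 and *Hspg2* at chr4:137468769-137570630 on the plus strand, and *Lamc1* at chr1:153218922-153332786 and *Sparc* at chr11:55394500-55423183 on the minus strand. RefSeq promoter windows (GRCm38.p6, 250 bases before to 50 bases after the start) were held for 7 of the 10 members. The windows of the collagen pairs are printed because the members of a pair are compared with each other below, with capitals marking matches on either strand to CCAAT (in 37.39% of 32817 promoters), GGGCGG (35.63%), TATAAA (13.62%) or CCCTCCCC (10.76%).
*Col4a1* and *Col4a2* shared stretch, chr8:11312777-11312854, plus strand: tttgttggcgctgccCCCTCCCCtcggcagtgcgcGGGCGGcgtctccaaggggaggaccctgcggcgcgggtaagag
*Col4a1*, chr8:11312777-11313076, minus strand: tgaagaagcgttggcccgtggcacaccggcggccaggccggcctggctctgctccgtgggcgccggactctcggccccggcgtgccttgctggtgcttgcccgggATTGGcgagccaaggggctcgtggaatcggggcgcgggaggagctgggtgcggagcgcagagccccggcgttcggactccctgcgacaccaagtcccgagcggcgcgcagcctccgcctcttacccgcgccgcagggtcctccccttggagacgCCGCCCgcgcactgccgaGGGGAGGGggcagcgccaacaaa
*Col4a2*, chr8:11312555-11312854, plus strand: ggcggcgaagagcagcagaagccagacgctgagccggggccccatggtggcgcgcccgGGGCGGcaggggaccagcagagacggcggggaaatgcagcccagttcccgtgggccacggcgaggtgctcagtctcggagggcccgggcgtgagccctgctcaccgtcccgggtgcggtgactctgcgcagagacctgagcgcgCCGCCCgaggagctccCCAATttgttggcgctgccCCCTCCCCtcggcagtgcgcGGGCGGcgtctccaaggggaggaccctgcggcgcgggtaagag
*Col4a4*, chr1:82586800-82587099, minus strand, which covers the start of *Col4a3*: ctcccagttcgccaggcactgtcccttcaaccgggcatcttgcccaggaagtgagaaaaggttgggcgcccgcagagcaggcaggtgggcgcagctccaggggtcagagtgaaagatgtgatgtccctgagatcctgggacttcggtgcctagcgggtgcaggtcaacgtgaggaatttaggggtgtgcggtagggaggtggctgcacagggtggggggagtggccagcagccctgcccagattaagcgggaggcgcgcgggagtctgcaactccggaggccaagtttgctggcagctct
*Col4a5*, chrX:141475169-141475468, plus strand: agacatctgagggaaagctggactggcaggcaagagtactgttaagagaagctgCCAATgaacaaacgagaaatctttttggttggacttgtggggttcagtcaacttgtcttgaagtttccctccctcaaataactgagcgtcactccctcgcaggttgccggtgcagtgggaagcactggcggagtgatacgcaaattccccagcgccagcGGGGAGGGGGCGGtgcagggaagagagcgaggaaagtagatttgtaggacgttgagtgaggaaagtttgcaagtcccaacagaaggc
*Col4a6*, chrX:141474027-141474326, minus strand: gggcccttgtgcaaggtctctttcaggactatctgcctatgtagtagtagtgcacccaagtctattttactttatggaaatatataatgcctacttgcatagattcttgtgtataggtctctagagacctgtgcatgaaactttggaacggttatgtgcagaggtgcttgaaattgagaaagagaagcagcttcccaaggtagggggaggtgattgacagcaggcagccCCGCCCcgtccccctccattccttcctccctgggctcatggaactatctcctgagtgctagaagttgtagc
The *Col4a1* and *Col4a2* windows share 78 bases, which hold 1 CCCTCCCC and 1 GGGCGG match. CCCTCCCC was found in the windows of *Col4a1*, *Col4a2* and *Col4a5*, where it shares 1 base with a GGGCGG match. TATAAA was found in 0 of the 7 windows. The *Col4a4* window held no match to any of the 4 motifs, and the windows ranged from 48.3% G and C in *Col4a6* to 74.0% in *Col4a1*.

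The libraries held 14272174 to 29639719 counts. Levels are given as CPM, counts scaled to a common library size by edgeR's TMM method, which sets the bulk of the genes equal between libraries. The scaling factors were 1.20 to 2.26 in the *Cryaa* libraries and 0.488 to 0.774 in the *Cryab* libraries, where the 10 most abundant genes of a library held up to 78.2% of its counts (59.6% or more in every library). When libraries were scaled by their totals only, the median gene stood at -1.61 (log2) between the WT groups. Members whose log2 fold change changes call or sign with this choice are therefore named. Levels in CPM are given on the TMM scale only, and 56 of 60 group means moved by at least their SD with library size alone. *Sparc* in *Cryab*-WT, for example, averaged 1274 CPM with TMM and 651 CPM with library size alone. Lens epithelium markers summed to between 88.2 and 127 CPM in all libraries, with 0 of 7 genes at 0, and lens fibre markers to between 2437 and 61196 CPM. In RNA of whole tissue, fewer cells of a type and less RNA per cell cannot be told apart. Nothing says that the pooled lenses of a group came from separate litters, so p-values measure the spread between these libraries.

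*Sparc* was the most abundant member in every library, and the *Col4a1* and *Col4a2* transcripts were the most abundant collagens. Values per kb use the gene length implied by the deposited CPM and RPKM. The study reported fewer reads at the 5' end, and any effect on the order of long and short genes was not tested. Per kb, the WT lenses at 2 days held 183 ± 28.8 CPM of *Sparc* (SD, n = 3), 16.5 ± 5.52 of *Col4a1* and 14.7 ± 4.41 of *Col4a2*. The other members followed on the same scale with 4.90 ± 1.89 for *Hspg2*, 2.77 ± 0.84 for *Col4a5*, 1.93 ± 0.44 for *Col4a6*, 1.85 ± 0.54 for *Col4a4*, 1.84 ± 0.28 for *Lamc1*, 1.16 ± 0.21 for *Lama1* and 0.81 ± 0.27 for *Col4a3*. *Col4a1* and *Col4a2* differed by less than their SD, and so did *Col4a6*, *Col4a4* and *Lamc1* among themselves. At 14 days the order changed, with *Col4a4* at 7.95 ± 0.36, *Col4a3* at 6.29 ± 1.004 and *Hspg2* at 6.26 ± 1.64 CPM per kb behind *Col4a1* (39.1 ± 6.76) and *Col4a2* (28.6 ± 5.01). *Col4a3* thus moved from the lowest of the 10 to above *Col4a5* (4.30 ± 0.21), *Col4a6* (2.85 ± 0.40), *Lamc1* (1.68 ± 0.19) and *Lama1* (1.17 ± 0.04).

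**Figure D1:**
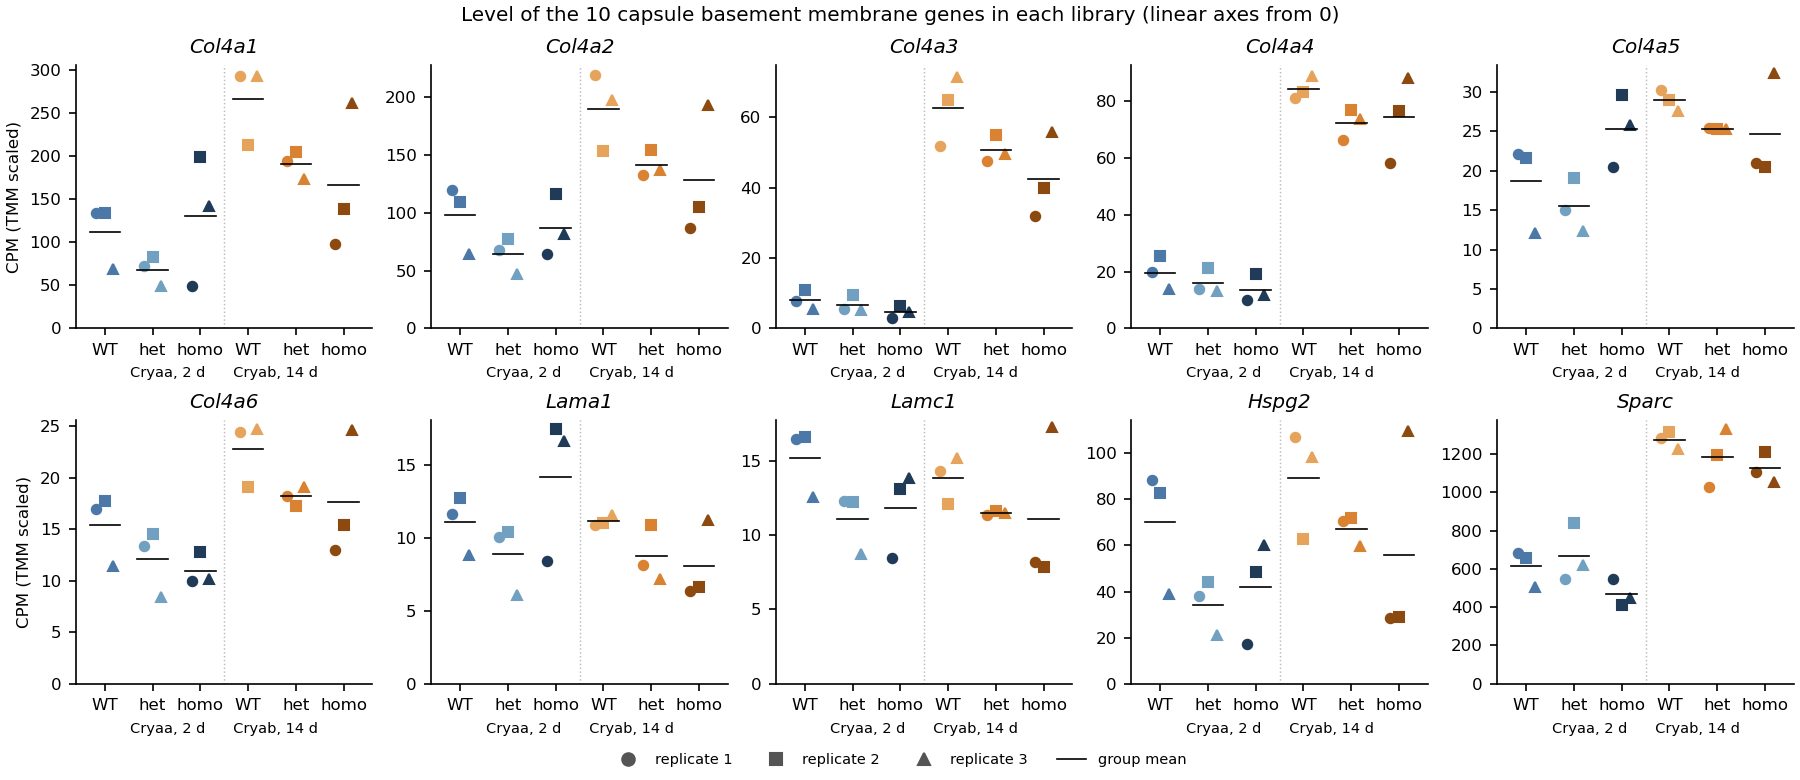
Level of each gene (y axis, TMM-scaled CPM, linear from 0) in the 18 libraries by group (x axis), with a point per library, its shape giving the replicate number, and a line at the group mean of 3. The *Col4a3* and *Col4a4* libraries at 14 days all lie above those at 2 days, and replicate 3 of *Cryab*-R120G-homo lies above the other 2 for most collagens and *Hspg2*.

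The WT groups show how the genes differed between the 14-day *Cryab* cohort and the 2-day *Cryaa* cohort. The *Col4a3* and *Col4a4* transcripts were higher at 14 days whichever scaling was used. *Col4a3* was 7.8, 10.8 and 5.5 CPM in the WT libraries at 2 days and 51.7, 65.0 and 71.3 CPM at 14 days. *Col4a4* was 19.7, 25.3 and 13.9 CPM at 2 days and 81.1, 83.3 and 88.6 CPM at 14 days. The groups do not overlap for either gene. The log2 fold change was 2.96 (SE 0.31, edgeR FDR 8.46e-07) for *Col4a3*, a 7.79-fold difference, and 2.10 (SE 0.27, FDR 9.06e-06) for *Col4a4*, a 4.29-fold difference. With library size alone they were 1.48 and 0.61, and both still passed, the second at an edgeR FDR of 0.0189.

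*Col4a1*, *Col4a2* and *Sparc* were also higher at 14 days on the TMM scale, but with library size alone their log2 fold changes were -0.23, -0.53 and -0.47 and did not pass. *Col4a1* was 134.3, 133.8 and 68.9 CPM at 2 days and 293.3, 213.4 and 293.4 CPM at 14 days. *Col4a2* was 119.2, 109.1 and 64.3 CPM at 2 days and 218.6, 153.4 and 196.8 CPM at 14 days. *Sparc* was 683.3, 657.7 and 503.8 CPM at 2 days and 1281.8, 1312.5 and 1226.7 CPM at 14 days. On this scale none of the 3 genes had overlapping groups, and WT replicate 3 was the lowest of the 2-day libraries for each. The log2 fold changes were 1.25 (SE 0.41, edgeR FDR 0.0345), 0.96 (SE 0.30, FDR 0.0229) and 1.05 (SE 0.22, FDR 0.00131).

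The remaining members did not pass on the TMM scale in the 6-group fit. The log2 fold change was 0.63 for *Col4a5* (edgeR FDR 0.0621), 0.56 for *Col4a6* (0.110), 0.01 for *Lama1* (0.981), -0.14 for *Lamc1* (0.759) and 0.35 for *Hspg2* (0.681). *Col4a5* passed as higher with the likelihood-ratio test (edgeR FDR 0.0439), with the replicate block (0.0358) and with the compared groups only (0.0487). With library size alone these 5 were -0.84, -0.94, -1.50, -1.66 and -1.12 and passed as lower, where 82% of all genes did and the median gene stood at -1.61. In all, 5 of 10 members passed, all higher, where 23.2% of the 13938 genes passed and 11.7% were higher. The groups did not overlap for 7 of 10, all higher at 14 days, where 43.2% of all genes did not overlap and 20.2% were higher, on the TMM scale. On library size alone 2 members lay apart as higher (*Col4a3* and *Col4a4*) and 7 as lower, where 1.34% of all genes lay apart as higher and 83.8% as lower, and *Col4a1* overlapped. Only 3 members (*Col4a3*, *Col4a4* and *Sparc*) passed without *Cryaa*-WT replicate 3, without *Cryab*-WT replicate 1 and without *Cryab*-WT replicate 3. Without *Cryaa*-WT replicate 1 or 2, 4 passed, without *Col4a1*.

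Markers of several cell types differed between the same WT groups. Lens fibre markers summed to 5227 to 8773 CPM at 2 days and 53405 to 61196 CPM at 14 days, with 6 of 9 tested called higher, and fibre cells are among the cells that make the capsule. Retina markers had 4 of 10 called higher. Of the endothelium markers 7 of 9 were called lower, of mesenchyme and pericyte markers 4 of 7, of pigment and ciliary epithelium markers 6 of 9, and of macrophage markers 8 of 8. Their part in the members' differences was not tested.

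**Figure D2:**
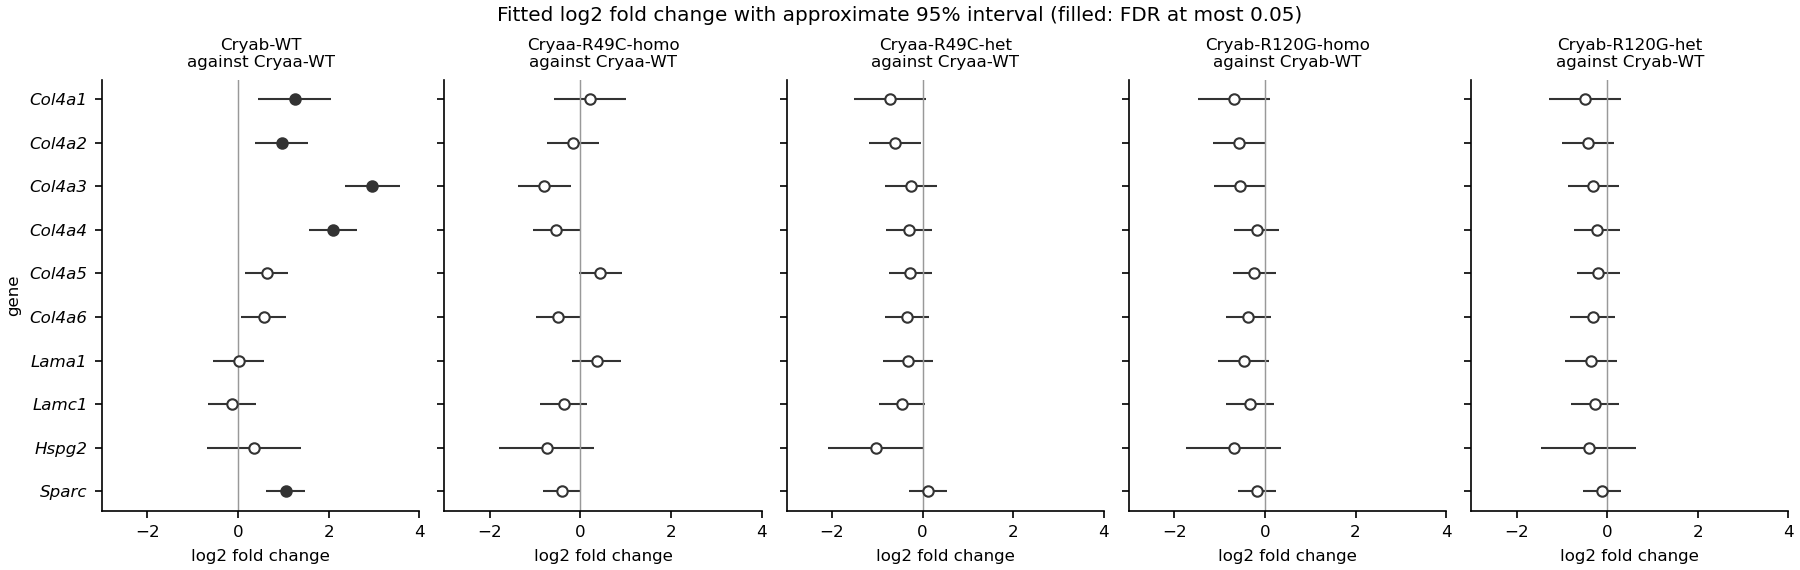
Fitted log2 fold change (x axis, TMM scaling) of each gene (y axis) in 5 comparisons, with approximate 95% intervals from the fit and filled points where the edgeR FDR was at most 0.05. The 5 filled points are *Col4a1*, *Col4a2*, *Col4a3*, *Col4a4* and *Sparc* between the WT groups, of which *Col4a1*, *Col4a2* and *Sparc* fall below 0 with library size alone.

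Shares within a library do not depend on the scaling, and they show a different mix of collagen chains in the 2 cohorts. Of the CPM per kb of the 6 collagen genes, *Col4a3* and *Col4a4* together held 5.77, 7.72 and 7.48% in the *Cryaa*-WT libraries and 13.3, 19.0 and 16.2% in the *Cryab*-WT libraries. All 9 *Cryaa* libraries lay between 3.95 and 9.34% and all 9 *Cryab* libraries between 13.3 and 21.4%. The difference between the cohorts therefore exceeded the spread over all genotypes. The *Col4a5* and *Col4a6* share went the other way, 11.8 to 13.0% in *Cryaa*-WT and 7.54 to 8.87% in *Cryab*-WT, while *Col4a1* and *Col4a2* held 79.5 to 82.4% and 72.1 to 78.8%. *Col4a3* also differed from its neighbour: *Col4a4* was 2.20 to 2.38 times *Col4a3* per kb in *Cryaa*-WT and 1.17 to 1.47 times in *Cryab*-WT. With 3 libraries against 3, an exact two-sided permutation test cannot go below p = 0.1, so these shares are given without a test. A gene on the opposite strand, *C430014B12Rik*, spans 4981 bases of *Col4a3* exons, and the strand setting of the counting is not stated. It was listed with at most 16 counts in any library. The study counted only unambiguous reads, so this low count cannot show how many *Col4a3* reads were left out. The antisense genes *Gm15418* and *Gm15419* span 1748 and 1074 bases of *Col4a1* and *Col4a2* exons. Any effect of these overlaps on the levels, shares and ratios was not tested.

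**Figure D3:**
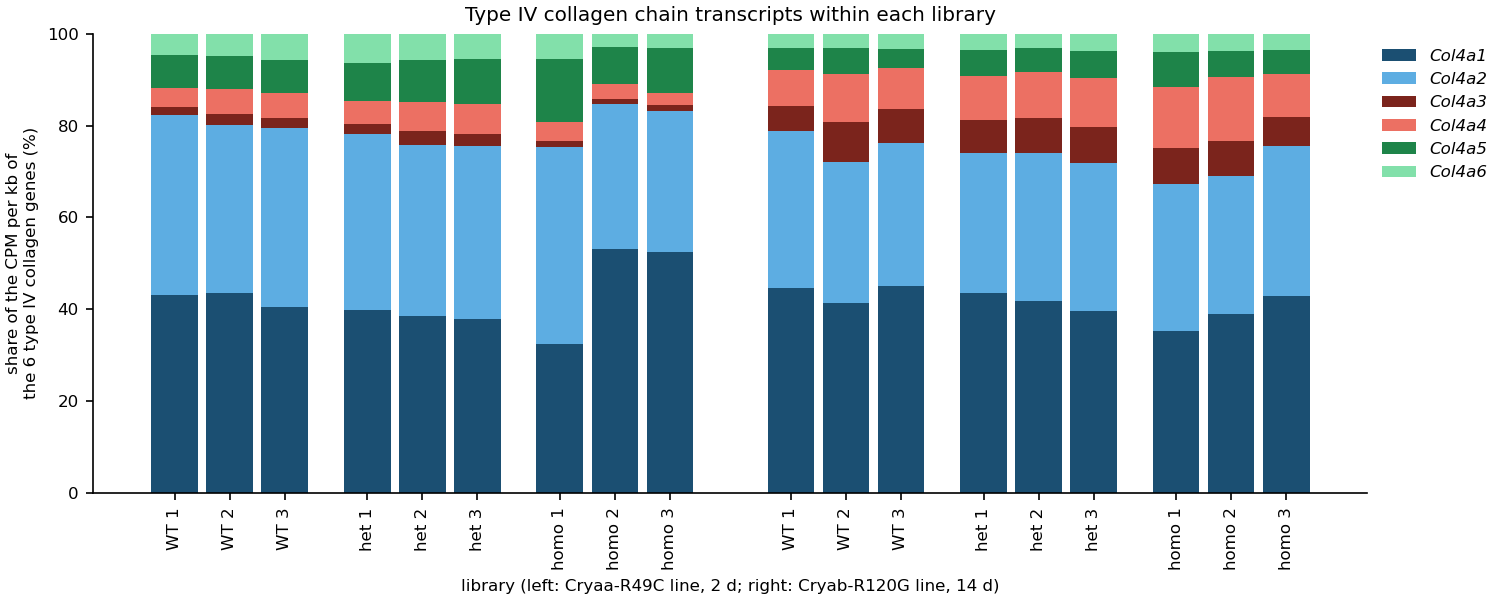
Share of each type IV collagen gene (y axis, % of the summed CPM per kb of the 6 genes) in each library (x axis, left 2 days, right 14 days). The *Col4a3* and *Col4a4* segments together fill 3.95 to 9.34% of the bars at 2 days and 13.3 to 21.4% at 14 days.

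The *Cryaa*-R49C-homo lenses were compared with WT lenses of the same age. No member passed, where 9.79% of all genes did (4.87% higher and 4.92% lower). The groups overlapped for all 10 members on the TMM scale, where 24.5% of all genes did not overlap, and with library size alone *Col4a5* and *Lama1* lay apart as higher, where 20.5% of all genes did. *Col4a3* came nearest, at 3.0, 6.4 and 4.6 CPM in homo against 7.8, 10.8 and 5.5 CPM in WT, with a log2 fold change of -0.79 (SE 0.30, unadjusted p = 0.0147 and edgeR FDR 0.101). Homo replicate 2 lay above the lowest WT library, and the other 2 homo libraries lay below all WT libraries. *Col4a4* was 10.1, 19.1 and 11.7 CPM in homo (log2 fold change -0.53, SE 0.26, edgeR FDR 0.218), and *Col4a6* was 9.99, 12.8 and 10.1 CPM against 16.99, 17.8 and 11.4 CPM in WT (-0.49, SE 0.25, edgeR FDR 0.238). *Col4a5* lay on the other side of 0, at 20.4, 29.5 and 25.7 CPM in homo against 22.1, 21.6 and 12.1 CPM in WT (0.44, SE 0.24, edgeR FDR 0.279). *Col4a3* passed as lower with the likelihood-ratio test (edgeR FDR 0.0397), with the replicate block (0.0281) and without homo replicate 2 (-1.09, edgeR FDR 0.0487). With library size alone, *Col4a5* passed as higher (0.91, edgeR FDR 0.00708), and so did *Lama1* (0.78, edgeR FDR 0.0481), where 13.5% of all genes passed as higher.

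*Col4a1* spread most among the homo libraries. It was 49.6, 199.5 and 142.2 CPM in homo replicates 1, 2 and 3, replicate 1 being below all WT libraries and replicates 2 and 3 above all of them (log2 fold change 0.22, SE 0.40, edgeR FDR 0.801). *Hspg2* was 17.3, 48.6 and 60.1 CPM in the same libraries against 88.5, 82.9 and 39.0 CPM in WT (-0.74, SE 0.53, edgeR FDR 0.444). *Lama1*, the laminin chain of early and lens basement membranes, was 8.4, 17.5 and 16.6 CPM against 11.6, 12.7 and 8.8 CPM in WT (0.36, SE 0.28, edgeR FDR 0.483). For these 3 genes replicate 1 was the lowest homo library. *Sparc* was highest in replicate 1, with 545.8, 410.7 and 444.9 CPM in homo (-0.40, SE 0.21, edgeR FDR 0.269), and its log2 fold change was 0.064 with library size alone.

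Markers of vessel and mesenchyme cells moved with *Col4a1* among the homo libraries, but not throughout the WT and het libraries. The 9 endothelium markers summed to 39.2, 105 and 101 CPM in homo replicates 1, 2 and 3, against 34.3 to 53.3 CPM in WT and 33.6 to 43.9 CPM in het, with 0 of 9 genes at 0 in each of these libraries. The 8 mesenchyme and pericyte markers summed to 30.3, 121 and 96.4 CPM in homo, against 29.9 to 50.9 CPM in WT. Within WT and within het the endothelium sum was highest in replicate 3 (53.3 and 43.9 CPM), where *Col4a1* was lowest (68.9 and 48.96 CPM). The mesenchyme sum was also highest in WT replicate 3 (50.9 CPM). In het it was highest in replicate 2 (36.0 CPM), as was *Col4a1* (82.7 CPM). Of the endothelium markers tested in homo against WT, 2 of 9 passed as higher, and of the macrophage markers 2 of 8. Of the mesenchyme and pericyte markers *Rgs5* passed as higher and *Col1a2* as lower. Lens fibre markers had 6 of 9 called lower (sums of 2437 to 3416 CPM in homo and 5227 to 8773 CPM in WT), and pigment and ciliary epithelium markers 4 of 9 (13.8 to 19.8 and 27.6 to 45.2 CPM). Lens epithelium markers had 0 of 7 called, with 6 of 7 below 0 and 2 of 7 apart as lower. Their sums were 95.9 to 109 CPM in homo and 119 to 127 CPM in WT. Endothelial cells and pericytes also make *Col4a1*, *Col4a2* and *Hspg2*, and the part of any of these cells in the members' values was not tested. *Lama4*, a laminin chain of vessel walls, rose as well in homo against WT, from 2.73 to 7.12 CPM (log2 fold change 1.38, SE 0.41, edgeR FDR 0.0342).

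**Figure D4:**
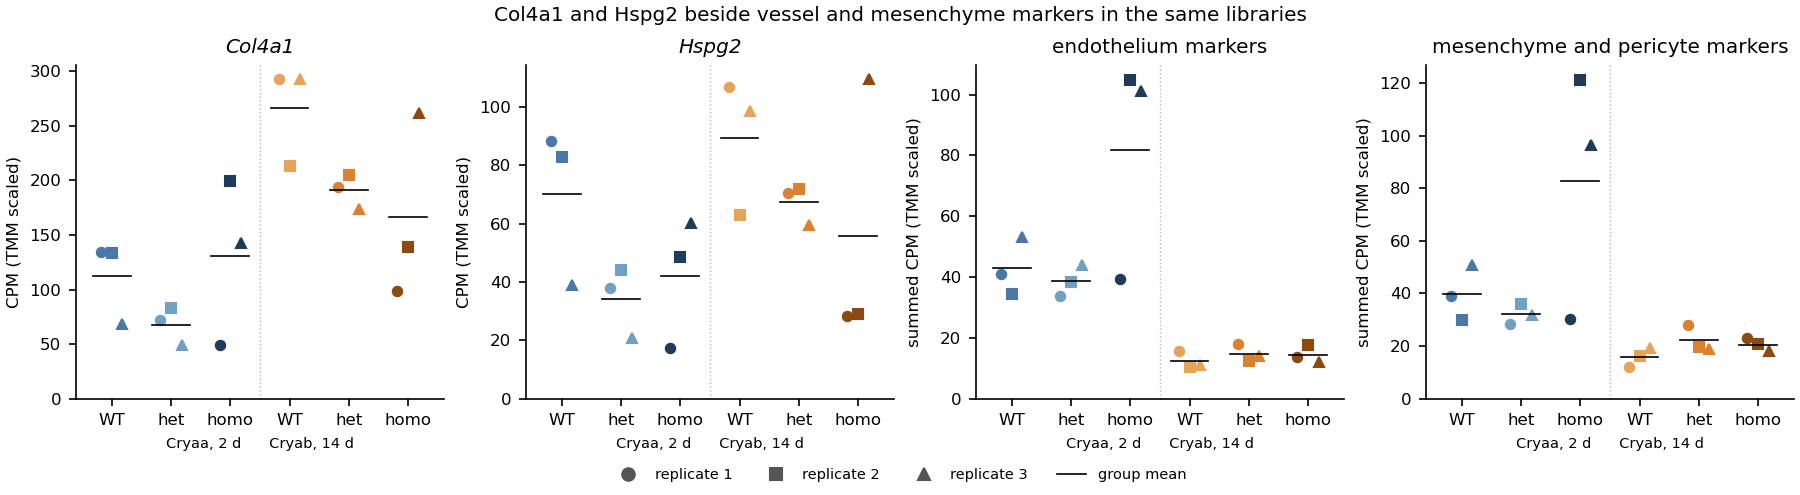
*Col4a1* and *Hspg2* (TMM-scaled CPM) beside the summed CPM of the endothelium and of the mesenchyme and pericyte markers (y axes) in the 18 libraries by group (x axes), with a point per library and a line at the group mean. In *Cryaa*-R49C-homo, replicate 1 is lower than replicates 2 and 3 in all 4 panels. For *Hspg2*, homo replicates 2 and 3 still lie below *Cryaa*-WT replicates 1 and 2.

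The *Cryaa*-R49C-het lenses held fewer transcripts of most members on average, but no member passed, where 0.00717% of all genes did. Of the 10 log2 fold changes against WT, 9 were below 0, from -1.03 for *Hspg2* to -0.25 for *Col4a3*, and the edgeR FDR was at least 0.836 for each. *Lamc1*, the laminin γ chain of most basement membranes, was the only member without overlap in this comparison on the TMM scale, and with library size alone *Col4a1*, *Col4a2* and *Hspg2* lay apart as lower, where 2.45% of all genes did. *Lamc1* was 16.5, 16.6 and 12.6 CPM in WT and 12.3, 12.2 and 8.7 CPM in het (log2 fold change -0.46, SE 0.26, unadjusted p = 0.0949). Against that 1 of 10, 21.9% of all genes did not overlap and 12.3% were lower. *Hspg2* had the largest difference, with 37.9, 44.0 and 21.0 CPM in het (-1.03, SE 0.54, unadjusted p = 0.0744). *Col4a1* was 72.2, 82.7 and 48.96 CPM (-0.72, SE 0.41) and *Col4a2* 67.5, 77.5 and 47.3 CPM (-0.61, SE 0.30). In WT, replicate 3 lay within the het range for both genes, and replicates 1 and 2 lay above it. *Sparc* was 545.9, 838.2 and 618.2 CPM in het (0.12, SE 0.21). Mesenchyme and pericyte markers were below 0 for 7 of 7 tested genes (median -0.52, 3 of 7 apart as lower), with sums of 28.6 to 36.0 CPM in het and 29.9 to 50.9 CPM in WT. Lens epithelium markers were below 0 for 6 of 7 (median -0.34, 1 of 7 apart as lower). Their sums were 104 to 113 CPM in het and 119 to 127 CPM in WT. The part of these cells in the members' values was not tested. Of the other basement membrane components, 15 of 17 were below 0.

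Between homo and het lenses of the *Cryaa* line, *Col4a5* came closest to the threshold. Its 3 homo libraries (20.4 to 29.5 CPM) lay above the 3 het libraries (12.3 to 19.1 CPM), with a log2 fold change of 0.71 (SE 0.24, unadjusted p = 0.00772 and edgeR FDR 0.0740). *Sparc* was lower by a bare margin, the highest homo library being at 545.77 and the lowest het library at 545.86 CPM (-0.51, SE 0.21, edgeR FDR 0.147). *Col4a1* (0.94, SE 0.41, edgeR FDR 0.170) and *Lama1* (0.68, SE 0.28, edgeR FDR 0.143) were above 0 with overlap. No member passed, where 8.32% of all genes did, and 2 of 10 did not overlap, where 22% of all genes did not (11.6% higher and 10.5% lower). *Col4a2*, *Col4a5* and *Lama1* lay apart as higher with library size alone, where 19.2% of all genes did, and *Sparc* overlapped. The count depended on the fit and on 1 library. The members that passed were 3 with library size and 3 with the likelihood-ratio test (*Col4a1*, *Col4a5* and *Lama1*), 1 with DESeq2 (*Sparc*), 1 with no filter (*Col4a1*) and 1 with the replicate block (*Col4a5*). Over all genes 1022 passed with library size and 3051 with the likelihood-ratio test, against 1160 in the 6-group fit. Without *Cryaa*-R49C-homo replicate 1, 4 members passed, *Col4a1* (1.33, edgeR FDR 0.0102), *Col4a5* (0.84, FDR 0.00854) and *Lama1* (0.95, FDR 0.00557) as higher and *Sparc* (-0.64, FDR 0.0216) as lower, and the calls over all genes went from 1160 to 4102. In the pair of libraries left, the endothelium and mesenchyme markers were high, and their part in these calls was not tested.

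Of 5 ratios between members within a library, 3 had all 3 *Cryaa*-R49C-homo libraries outside the range of the other 15, of which 2 lay to 1 side of it. These ratios were singled out after their values were seen, so they are given as a description with no test. *Col4a5* was 2.43, 2.75 and 3.01 times *Col4a6* per kb in the 3 homo libraries, against 1.26 to 1.91 times in the other 15 libraries. *Lamc1* was 1.16, 0.87 and 0.96 times *Lama1* per kb in homo, against 1.23 to 1.85 times in the other 15. *Col4a1* was 0.75, 1.67 and 1.70 times *Col4a2* in homo, outside the range of 1.005 to 1.45 in the other 15 libraries on both sides. The *Col4a3* and *Col4a4* share of the 6 collagens was 5.58, 4.41 and 3.95% in homo, below each of the other 6 libraries of the line (5.77 to 9.34%). The other ratios overlapped: *Col4a4* was 2.38 to 3.21 times *Col4a3* in homo and 1.17 to 2.38 times in the other 15, and *Sparc* was 4.17 to 22.3 times *Col4a1* in homo and 8.17 to 25.6 times in the other 15.

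**Figure D5:**
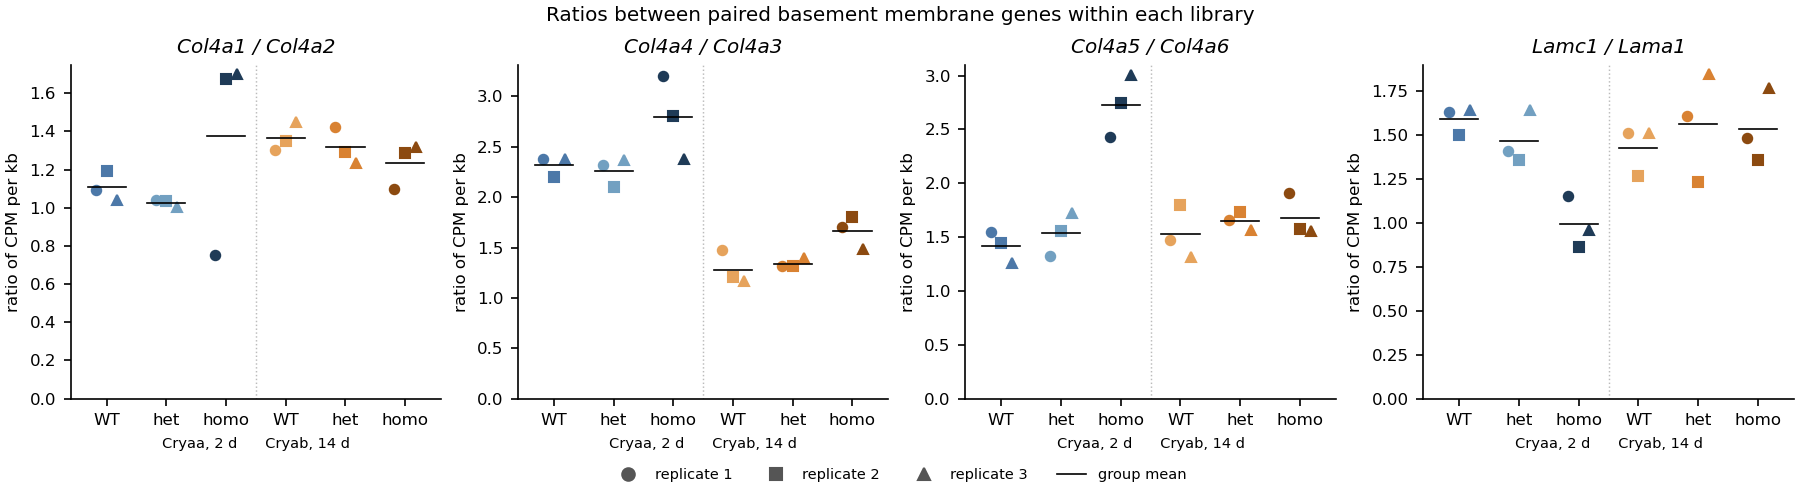
Ratio of CPM per kb (y axes, linear from 0) between the genes of 4 pairs in the 18 libraries by group (x axes), with a point per library and a line at the group mean. The 3 *Cryaa*-R49C-homo libraries have *Col4a5* to *Col4a6* ratios of 2.43 to 3.01 and *Lamc1* to *Lama1* ratios of 0.87 to 1.16, apart from the other 15.

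The *Cryab*-R120G-homo lenses were compared with WT lenses at 14 days. No member passed, where 0.0502% of all genes did, and 7 of the 13938 genes passed in all. All 10 log2 fold changes were below 0 on the TMM scale, from -0.69 to -0.18, and with library size alone *Col4a4* (0.16), *Col4a5* (0.11), *Lamc1* (0.014) and *Sparc* (0.19) were above 0. The homo libraries differed widely from each other. *Col4a1* was 98.6, 139.1 and 261.7 CPM in homo replicates 1, 2 and 3 (log2 fold change -0.68, SE 0.41, edgeR FDR 0.901). *Col4a2* was 87.1, 104.8 and 192.9 CPM (-0.56, SE 0.30, FDR 0.845), and *Col4a3* was 31.95, 39.97 and 55.9 CPM (-0.56, SE 0.29, FDR 0.844). Replicate 3 lay inside the WT range for each of these genes, and replicates 1 and 2 lay below it.

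*Hspg2* in replicate 3 lay above all WT libraries and in replicates 1 and 2 below them, at 28.4, 29.0 and 109.7 CPM in homo against 107.0, 62.9 and 98.6 CPM in WT (log2 fold change -0.69, SE 0.54, edgeR FDR 0.944). *Lamc1* also lay above all WT libraries in replicate 3 and below them in replicates 1 and 2. It was 8.2, 7.9 and 17.3 CPM in homo against 14.3, 12.1 and 15.2 CPM in WT. Retina markers summed to 995, 520 and 180 CPM in the same homo libraries, and the homo library with the most *Hspg2* had the fewest retina transcripts. In WT they were 656, 21.1 and 76.5 CPM in the order of the replicates. There the library with the most *Hspg2* had the most retina transcripts. Pigment and ciliary epithelium markers summed to 28.4 to 42.9 CPM in homo and 15.6 to 17.3 CPM in WT, with 7 of 9 apart as higher and *Slc6a13* called. Lens fibre markers summed to 32336 to 45556 CPM in homo and 53405 to 61196 CPM in WT. Of these, 8 of 9 were below 0, 2 of 9 lay apart as lower and 0 were called. The part of these cells in the members' values was not tested. *Sparc* was 1107.9, 1212.3 and 1055.3 CPM in homo, the only member without overlap with WT, where 9% of all genes did not overlap and 4.49% were lower (log2 fold change -0.18, SE 0.21, edgeR FDR 0.964), and with library size alone it overlapped too. Same-numbered libraries deviated together in this comparison, and with the replicate number as a block the edgeR FDR of the members was 0.513 to 0.927.

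In the *Cryab*-R120G-het libraries *Col4a1* was 194.2, 204.9 and 173.9 CPM, *Hspg2* was 70.5, 71.99 and 59.6 CPM, and *Col4a5* was 25.4, 25.2 and 25.2 CPM. *Col4a1* and *Col4a5* lay below all 3 WT libraries, and so did *Col4a4* (66.4, 76.7 and 73.6 CPM), *Lama1* (8.1, 10.9 and 7.1 CPM, the highest just under the lowest WT library at 10.9 CPM) and *Lamc1* (11.4, 11.7 and 11.5 CPM). That is 5 of 10 members without overlap and lower, where 10.1% of all genes did not overlap and 5.47% were lower, on the TMM scale. All 10 members overlapped with library size alone. The differences were small beside their error, with log2 fold changes from -0.48 to -0.11 and an edgeR FDR of 1 for each, and no member passed, where 0.00717% of all genes did. With library size alone, *Col4a5* (0.016) and *Sparc* (0.095) were above 0. Pigment and ciliary epithelium markers summed to 27.7 to 72.1 CPM in these libraries and to 15.6 to 17.3 CPM in *Cryab*-WT, and erythrocyte markers to 134 to 450 and 15.6 to 146 CPM. Of the endothelium markers 4 of 9 lay apart as higher, and of the mesenchyme and pericyte markers 4 of 7, with 0 called in either list. The part of these cells was not tested. Between homo and het lenses of the *Cryab* line no member passed in edgeR's test, and 0 of 13938 genes did (0%), with 273 at an unadjusted p under 0.05 and 0 called by DESeq2. All 10 members overlapped, where 6.86% of all genes did not. The mutant groups of a line share their WT libraries, so the comparisons with WT are not independent of each other.

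The difference between the lines in the effect of 2 mutant copies was tested as an interaction. No member passed, where 2.91% of all genes did, and the lowest edgeR FDR was 0.333, for *Lama1*. Without *Cryaa*-R49C-homo replicate 1, *Lama1* passed, and the calls over all genes went from 406 to 1812. In the effect of 1 copy no member passed in edgeR's test, and 0% of all genes did, with 352 genes at an unadjusted p under 0.05 and 6 called by DESeq2.

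Other genes of the basement membrane were compared between the WT groups, where 23.2% of all genes passed. Of 17 other components tested, 2 were higher and 7 lower at 14 days. *Col18a1* and *Agrn*, which like *Hspg2* encode heparan sulfate proteoglycans, fell by 2.74 and 2.11 on the log2 scale (edgeR FDR 4.70e-06 and 8.24e-05), from 18.6 to 2.87 CPM and from 9.65 to 2.30 CPM. *Lama2*, a laminin chain prominent in muscle and nerve, rose from 3.32 to 13.7 CPM (2.04, SE 0.34), and *Lama4* fell from 2.73 to 0.51 CPM. With library size alone, where 82% of all genes passed as lower, *Lama2* did not pass. Of 9 endothelium markers 7 were lower at 14 days, and of 8 macrophage markers 8, and their part in these falls was not tested.

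Of 20 collagen synthesis and cross-linking genes tested, 4 were higher and 2 lower at 14 days, a share near that of all genes. *P4ha1* and *P4ha2*, the catalytic subunits of prolyl 4-hydroxylase, rose from 22.8 to 80.3 CPM (log2 fold change 1.82, SE 0.24) and from 10.4 to 27.7 CPM (1.42, SE 0.25), and neither passed with library size alone. *Lox*, a lysyl oxidase that cross-links fibrillar collagen, passed as lower with 12 to 15 counts in each *Cryaa*-WT library and 0 or 1 in each *Cryab*-WT library, and *P3h3*, a prolyl 3-hydroxylase family member, fell from 1.77 to 0.53 CPM. Of 14 basement membrane receptors tested, 4 passed, also near the share of all genes, and 3 were higher, with the syndecan *Sdc4* (1.61, SE 0.26) and *Sdc2* (1.02, SE 0.23) among them, and 1 lower, the laminin receptor *Bcam*. With library size alone *Sdc4* (0.04) and *Sdc2* (-0.48) did not pass, and *Itgb5*, the other of the 3, passed as lower (-0.48). Of 10 matrix turnover genes tested, 2 were higher, the metalloproteinase inhibitors *Timp3* (1.15, SE 0.36) and *Timp2* (0.78, SE 0.25), and 2 lower, the membrane metalloproteinase *Mmp14* (-1.47, SE 0.41) and the plasminogen activator *Plat* (-1.41, SE 0.47). *Timp3* did not pass with library size alone (-0.36), and *Timp2* passed as lower (-0.73). The median log2 fold change was 0.80 for the 10 members, -0.32 for the other components, 0.30 for synthesis, 0.46 for receptors and -0.28 for turnover, and -0.07 for all genes tested.

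In *Cryaa*-R49C-homo against WT, 9.79% of all genes passed. Among the 17 other components *Lama4* was higher, and *Fras1* (3.04 to 1.65 CPM) and *Smoc1* (0.77 to 0.18 CPM) were lower, and these latter did not pass with library size alone. The collagen-binding integrin gene *Itga2* fell from 5.44 to 1.91 CPM (log2 fold change -1.49, SE 0.27, edgeR FDR 0.00081), and it was the 1 gene of these 4 lists whose change also differed between the lines (edgeR FDR 0.0231). None of the 20 synthesis genes or the 10 turnover genes passed. In homo against het lenses, where 8.32% of all genes passed, *Lama4* (2.01, SE 0.42) and *Col15a1* (1.67, SE 0.48) were the 2 most significant of 3 other components that were higher, *Mia3*, which helps load procollagen into transport vesicles, was higher (0.70, SE 0.20), and of the receptors *Itgb5* was 1 of 3 higher and *Itga2* the 1 lower. In het against WT and in the *Cryab* genotype comparisons, 0 genes of these lists passed.

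The genes whose pattern over the 18 libraries was most like that of *Col4a1*, by the root mean square difference of centred log2 CPM, were *Gm26847* (0.23), *Zfand5* (0.26), *Dmrta2* (0.27), *Ahnak* (0.29) and *Basp1* (0.30). Its promoter partner *Col4a2* ranked 4 among 13938 genes (0.28), and *Hspg2* ranked 132 (0.44). For *Sparc* the nearest were *Cox6a1* (0.12), *Dctn6* (0.12), *Mrfap1* (0.12), *Cox14* (0.13) and *Pebp1* (0.13), and the nearest member, *Col4a6*, ranked 1135 (0.39).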

How the data were processed

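RNA of pooled whole lenses was sequenced by the study as 50-base single reads. Per the labels and the study's methods, the authors aligned reads with STAR to GRCm38 and counted them per gene with featureCounts. The strand setting is not given in the sources used here. The authors deposited raw counts, which were tested here, with CPM scaled by library total and RPKM, whose ratio was used only for gene length. A deposited table of log2 values was not used. Counts were fitted with edgeR 4.0.16 (robust quasi-likelihood test, TMM scaling, filterByExpr) in 1 model of 6 groups over 18 libraries, with limma 3.58.1 and R 4.3.3. P-values were adjusted by Benjamini-Hochberg over 13938 genes and called at an FDR of 0.05. Groups came from the titles. Genes of other lists were named by smallest adjusted p, at most 4 per list in *Cryaa*-R49C-homo against WT and between WT groups, and at most 2 elsewhere. The members and lists were chosen with earlier results of these data known. The fit was tested on simulated data. Alternatives were library size scaling, DESeq2 1.42.0, no filter, a likelihood-ratio test, a replicate block, the compared groups only and each library left out.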

Additional observations from a re-analysis of the deposited data

How the results depend on the processing

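There were 720 alternatives to the members' log2 fold changes in the 6 comparisons whose folds are printed (not *Cryab*-R120G-homo against het or the differences between lines). Of these, 657 kept direction and side of the threshold. With direction kept, 22 came to pass and 8 no longer passed. The other 33 changed sign, and some of them also changed side of the threshold. The cause was not tested. In *Cryaa*-R49C-homo against WT, 2 members passed with library size (*Col4a5* and *Lama1* higher), 1 with the likelihood-ratio test and 1 with the replicate block (*Col4a3* lower), and 0 to 1 with a library left out (*Col4a3*, without homo replicate 2). In homo against het, 3 passed with library size and 3 with the likelihood-ratio test (*Col4a1*, *Col4a5* and *Lama1*), 1 with DESeq2 (*Sparc*), 1 with no filter (*Col4a1*), 1 with the block (*Col4a5*), and 0 to 4 with a library left out. Between WT groups 3 to 5 passed with a library left out, 7 with library size, and 6 (*Col4a5* added) with the likelihood-ratio test, the block and the compared groups only. With a library left out, 0 to 1 passed in the homo effect between lines. The other comparisons called 0 members in every alternative.

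With library size the sign changed in *Cryaa*-R49C-homo against WT for *Col4a2* (0.31), *Lamc1* (0.050) and *Sparc* (0.064), in homo against het for *Col4a6* (0.076), in *Cryab*-R120G-homo against WT for *Col4a4* (0.16), *Col4a5* (0.11), *Lamc1* (0.014) and *Sparc* (0.19), in *Cryab*-R120G-het against WT for *Col4a5* (0.016) and *Sparc* (0.095), and between WT groups for *Col4a1* (-0.23), *Col4a2* (-0.53), *Col4a5* (-0.84), *Col4a6* (-0.94), *Lama1* (-1.50), *Hspg2* (-1.12) and *Sparc* (-0.47). *Lama1* between WT groups was -0.0069 with DESeq2 and -0.042 with no filter. With a library left out, ranges crossed 0 in *Cryaa*-R49C-homo against WT for *Col4a1* (-0.23 to 0.61) and *Col4a2* (-0.43 to 0.015), in het against WT for *Col4a3* (-0.57 to 0.024) and *Sparc* (-0.079 to 0.24), in homo against het for *Col4a4* (-0.55 to 0.016), *Col4a6* (-0.35 to 0.0027), *Lamc1* (-0.057 to 0.28) and *Hspg2* (-0.061 to 0.66), and between WT groups for *Lama1* (-0.13 to 0.12).

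Same-numbered libraries deviated together in every pair only in *Cryab*-R120G-homo against WT, where the replicate block moved all genes called from 7 to 18 and changed no member's call. Elsewhere some pairs did and others did not. In *Cryaa*-R49C-het against WT, the deviations from the group means correlated at -0.046, 0.33 and 0.48 for replicates 1, 2 and 3. In *Cryab*-R120G-het against WT they correlated at 0.35, 0.0082 and 0.13. All genes called in *Cryaa*-R49C-homo against WT were 1365, 2138 with library size, 2886 with the likelihood-ratio test, 473 with the compared groups only and 3085 without homo replicate 1. In homo against het they were 1160, 3051 with the likelihood-ratio test, 299 with the compared groups only and 4102 without homo replicate 1. In *Cryab*-R120G-homo against WT they were 7, 19 with DESeq2, 302 with no filter and 257 with the likelihood-ratio test, and between WT groups 3237 and 11593 with library size. With 3 libraries a group, small differences cannot be resolved.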
